A study of Arabidopsis thaliana with 6 samples.

Results

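The cysteine-rich receptor-like kinases (CRKs) of Arabidopsis thaliana were followed in plants of 3 genotypes. The family was taken as the genes CRK1 to CRK42, by a list of 42 locus identifiers. The count tables hold a row for 41 of them, out of 32833 genes in all, and CRK35 was not analysed here. A tandem array on chromosome 4, from CRK5 (AT4G23130) to CRK24 (AT4G23320), holds 20 of the 41 members, and the other 21 lie elsewhere. A total of 35 members had enough counts to be tested, all 20 of the array and 15 of the others, out of 21374 genes tested. The filter requires counts in at least 2 libraries, so a weakly expressed gene can pass it through the genotype in which it is high. CRK20, CRK30 and CRK31, for example, had at most 0.441 CPM (read counts scaled to library size) in Col-0, and counts over the 35 members do not stand for the whole family.

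CRKs are kinases of the plasma membrane. Their extracellular part carries cysteine-rich domains, a single transmembrane segment follows, and a serine/threonine kinase domain lies in the cytosol. The family has expanded in plants largely by tandem duplication. Many members are known to be induced by pathogens, by the defence hormone salicylic acid (SA) and by reactive oxygen species, and several act beside pattern receptors or NADPH oxidases at the cell surface. Their promoters are known to be rich in W-boxes, the DNA element bound by WRKY transcription factors.

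The plants were grown on soil without treatment for 21 days, with 16 h of light at 22 °C and 8 h of darkness at 18 °C, and were harvested without roots. LNJ-OX plants carry a transgene in the Col-0 background that encodes LITTLE NINJA, a tagged synthetic microProtein derived from the conserved domain of AFP2, under a strong viral promoter that is active in most tissues. The jazD line is a decuple mutant in genes for JAZ proteins, repressors of jasmonic acid (JA) signalling, also in the Col-0 background, and the labels do not list its alleles. Col-0 is the wild type, and each genotype was represented by 2 libraries. The study's methods speak of leaves at an age close to this one, and the labels were followed. Neither the number of plants behind a library nor the number of transgenic lines behind LNJ-OX is given in the labels, so p-values measure the spread between these libraries.

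Counts on genes came to between 10164591 and 15003290 per library, and 3 counts corresponded to between 0.189 and 0.315 CPM. AFP2, the source of the transgene's domain, stood at 63.5 and 50 CPM in LNJ-OX, 8.81 and 9.14 CPM in jazD, and 8.19 and 10.99 CPM in Col-0. Replicates differed by more than sampling noise, most of all in Col-0, where chi-square per degree of freedom was 45.2. The 4 leaf markers summed to between 17300 and 30400 CPM in the 6 libraries, and the 4 root markers to between 0.189 and 1.72 CPM. Markers of pollen and tapetum (8 genes) summed to 24.9 and 102 CPM in LNJ-OX, 19.9 and 30.1 CPM in jazD, and 144 and 118 CPM in Col-0, and the only one of them at 0 was AGP11 in LNJ-OX replicate 1. Of this list, the pollen genes AGP11, AGP6, PPME1 and VGD1 had lower means in LNJ-OX than in Col-0, and the tapetum genes A9, LAP5, LAP6 and ACOS5 had higher means. LNJ-OX replicate 2 was the higher library for each of these tapetum genes. For A9, LAP5 and ACOS5 the LNJ-OX libraries overlapped those of Col-0. The 3 floral organ markers summed to 21.9 and 43.5 CPM in LNJ-OX, 12.2 and 15.6 CPM in jazD, and 35.2 and 47 CPM in Col-0. Markers of senescent leaves (3 genes) summed to 481 and 359 CPM in LNJ-OX and 555 and 608 CPM in jazD, mostly from SAG13. The Col-0 sums were 412 and 290 CPM, with 185.3 and 142.6 CPM from SAG13 and 220 and 141 CPM from SAG12. SAG12 had 22.7 and 103 CPM in LNJ-OX, and 41 and 56.5 CPM in jazD. SAG29 had 1.97 and 1.55 CPM in LNJ-OX, 4.93 and 65.4 CPM in jazD, and 6.55 and 6.39 CPM in Col-0. The part of these differences in the CRK results was not tested, and in such bulk tissue fewer cells of a type cannot be told apart from less RNA per cell.

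The CRK transcripts together were more abundant in LNJ-OX than in both other genotypes. The 41 members summed to 1442 and 1168 CPM in the LNJ-OX libraries, 821.9 and 746.6 CPM in jazD, and 829.7 and 559.6 CPM in Col-0. Both LNJ-OX sums were above the 4 others, while the jazD and Col-0 sums overlapped. The mean sum was 1305 ± 194 CPM in LNJ-OX, 784.2 ± 53.2 CPM in jazD and 694.7 ± 191 CPM in Col-0 (SD, n = 2 each), which is 1.88 times the Col-0 mean in LNJ-OX and 1.13 times in jazD. In the array the sums of jazD (478.7 and 419.4 CPM) overlapped those of Col-0 (510.6 and 339 CPM), whereas elsewhere both jazD sums (343.2 and 327.3 CPM) were above both Col-0 sums (319 and 220.6 CPM). In the array the sums averaged 776.4 ± 123 CPM in LNJ-OX, 449.0 ± 41.9 CPM in jazD and 424.8 ± 121 CPM in Col-0. Members elsewhere averaged 528.6 ± 70.9 CPM in LNJ-OX, 335.2 ± 11.2 CPM in jazD and 269.8 ± 69.6 CPM in Col-0.

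**Figure D1:**
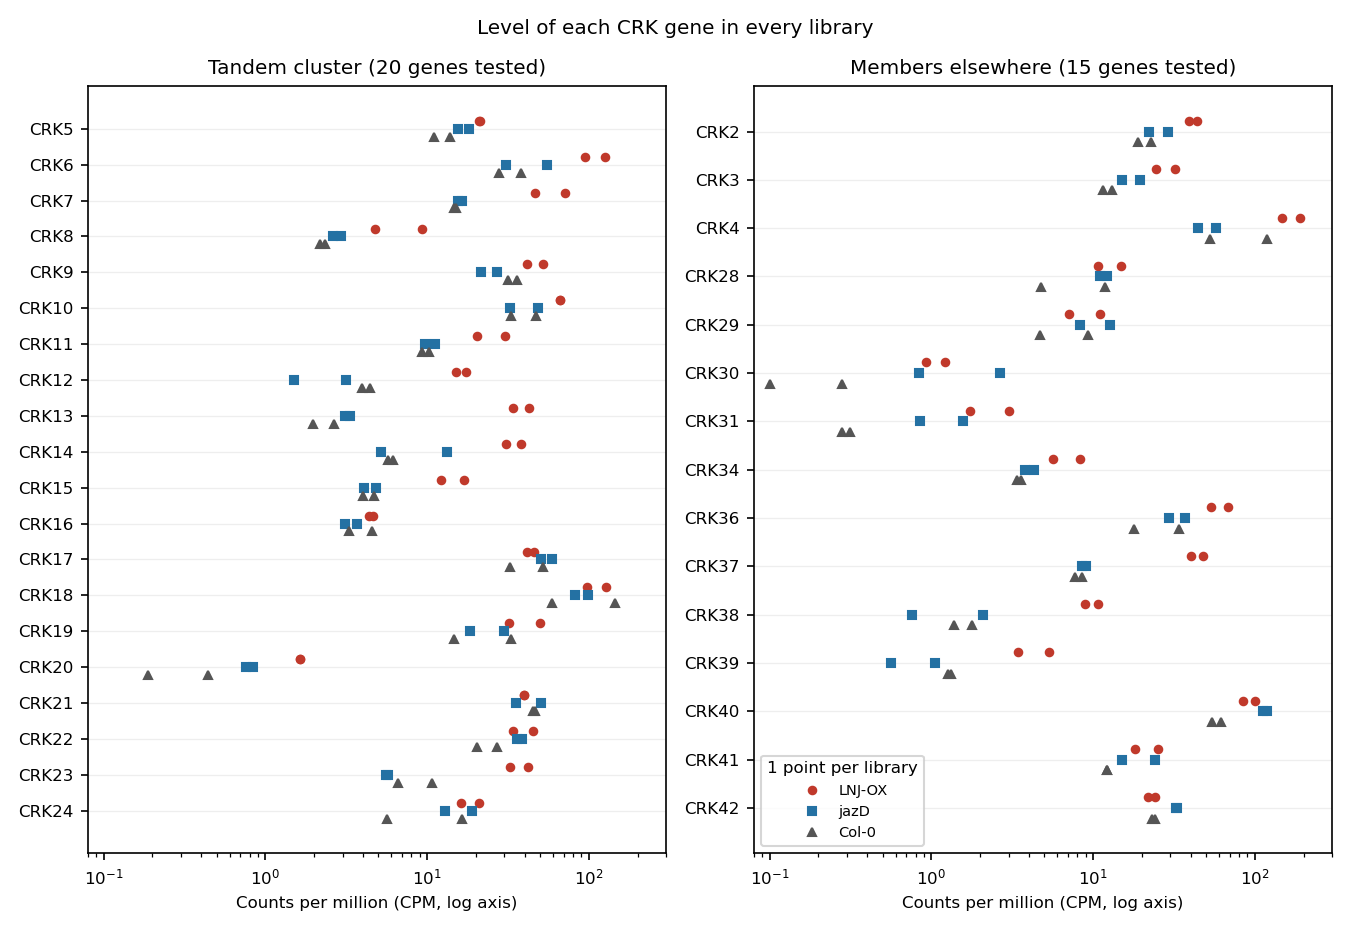
Level of each of the 35 CRK genes tested in every library, in CPM on a log axis, with the 20 genes of the tandem array on the left and the 15 others on the right. Each point is 1 library (circles LNJ-OX, squares jazD, triangles Col-0), and the Col-0 library with no count for CRK30 is drawn at the left end of that row. Both LNJ-OX points lie to the right of the 4 others in 22 of the 35 rows.

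Single members differed widely in level when counts were scaled to exon length. In LNJ-OX the most abundant members were CRK4 at a mean of 65.7 CPM per kb of exon, CRK18 at 50.7 and CRK6 at 42.2. In jazD, CRK18 had 40.95 CPM per kb and CRK40 had 37.1, and their libraries overlapped. In Col-0, CRK18 had 46.2 CPM per kb, CRK4 33.3, CRK21 19.3 and CRK40 18.8. The libraries of CRK18 spanned 44.0 to 57.4 CPM per kb in LNJ-OX, 37.2 to 44.7 in jazD and 26.8 to 65.7 in Col-0, so its rank above CRK4 in Col-0 (20.5 and 46.2 CPM per kb) was within the spread. At least 10 CPM per kb was reached by 18 members in LNJ-OX, 12 in jazD and 9 in Col-0. Fewer than 1 CPM per kb was found for 8 members in LNJ-OX, 13 in jazD and 13 in Col-0.

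LNJ-OX was compared with Col-0 to ask how the microProtein changes the transcriptome. Genes counted as called had a Benjamini-Hochberg adjusted p under 0.01 in the quasi-likelihood test of edgeR, together with a log2 fold change above 1 in size. In LNJ-OX, 5 of the 35 members tested were called higher (14.3%), CRK7, CRK13, CRK14 and CRK23 of the array and CRK37 elsewhere, where 0.837% of all genes tested were called higher. No member was called lower (0.585% of all genes were), none was lower at an unadjusted p under 0.05 (9.4% of all genes), and DESeq2 and limma-voom also called none lower. At an adjusted p under 0.05 without a minimum fold, 14 members were higher (40%) against 2.56% of all genes, 8 of the 20 in the array and 6 of the 15 elsewhere, and 0 were lower (2.29% of all genes). At an unadjusted p under 0.05, 25 members were higher (8.97% of all genes). Both LNJ-OX libraries were above both Col-0 libraries for 26 members (24% of all genes) and below them for 1 (23.9%). The number called at the stricter threshold moved with single libraries: it was 1 without Col-0 replicate 1 (CRK13), 2 without Col-0 replicate 2 and 2 without LNJ-OX replicate 1 (CRK13 and CRK37 both times), and 9 without LNJ-OX replicate 2. Over all genes, 1.42% were called in either direction with all libraries, and 0.0503, 0.673, 0.328 and 2.17% in these fits in the same order.

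CRK13 (AT4G23210, chr4:12148673-12151638 in TAIR10.1), whose overproduction is known to set off SA-dependent defence and cell death, showed the largest change among the members. It had 42.7 and 33.9 CPM in LNJ-OX, 3.36 and 3.11 CPM in jazD, and 2.65 and 1.97 CPM in Col-0. Both LNJ-OX libraries were far above the 4 others, from 649 and 394 counts against 42 and 21 counts in Col-0. The fitted fold of LNJ-OX over Col-0 was 16.3, and the log2 fold change was 4.03 ± 0.299 (SE), with an adjusted p of 0.00041. Its share of all CRK transcripts was 2.96 and 2.90% in LNJ-OX, 0.408 and 0.417% in jazD, and 0.319 and 0.352% in Col-0.

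CRK37 (AT4G04500, chr4:2238370-2240921) was the only member outside the array that was called. It had 47.9 and 40.3 CPM in LNJ-OX, 9.02 and 8.48 CPM in jazD, and 8.57 and 7.70 CPM in Col-0. The jazD and Col-0 libraries overlapped, and both LNJ-OX libraries stood clear of them. Its log2 fold change of LNJ-OX over Col-0 was 2.43 ± 0.244 (adjusted p = 0.00126).

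CRK14 (AT4G23220, chr4:12154091-12156881) lies next to CRK13 in the array. It had 37.9 and 30.7 CPM in LNJ-OX, 13.3 and 5.18 CPM in jazD, and 6.17 and 5.73 CPM in Col-0, with jazD replicate 1 above the other jazD library and above Col-0. The log2 fold change of LNJ-OX over Col-0 was 2.52 ± 0.383 (adjusted p = 0.00585). CRK7 (AT4G23150, chr4:12125664-12128490), which together with CRK6 is known to protect against extracellular oxidative stress, had 71.4 and 46.5 CPM in LNJ-OX, 16.5 and 15.6 CPM in jazD, and 15.2 and 14.7 CPM in Col-0. Its LNJ-OX libraries differed from each other more than the 4 remaining libraries did, and none of the groups overlapped. The log2 fold change of LNJ-OX over Col-0 was 1.98 ± 0.262 (adjusted p = 0.00365).

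CRK23 (AT4G23310, chr4:12185369-12188961), near the far end of the array, had 42.3 and 32.4 CPM in LNJ-OX, 5.56 and 5.75 CPM in jazD, and 10.8 and 6.57 CPM in Col-0. It was highest in LNJ-OX and lowest in jazD, with no overlap between the genotypes, and its log2 fold change of LNJ-OX over Col-0 was 2.09 ± 0.293 (adjusted p = 0.00471). CRK12 (AT4G23200, chr4:12145035-12148041), a neighbour of CRK13, had 17.3 and 15.2 CPM in LNJ-OX, 3.15 and 1.51 CPM in jazD, and 4.41 and 3.94 CPM in Col-0. It showed the same order of genotypes as CRK23. Its log2 fold change of LNJ-OX over Col-0 was 1.95 ± 0.356 with an adjusted p of 0.0119, which is above the threshold for a call.

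**Figure D2:**
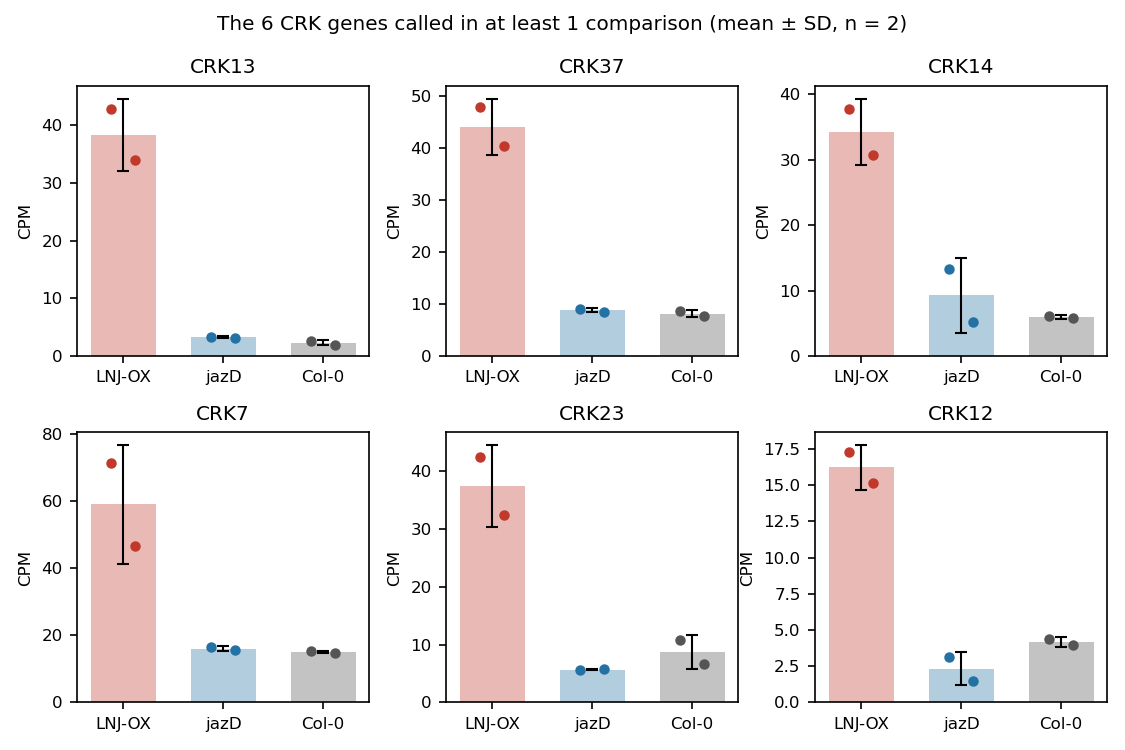
CPM of the 6 CRK genes called in at least 1 of the 3 comparisons, in 1 panel each with its own axis from 0. Bars give the mean and error bars the SD of 2 libraries, and each point is 1 library. In every panel both LNJ-OX points are above the jazD and Col-0 points.

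Among members not called in any comparison, CRK38, CRK6, CRK15, CRK11 and CRK3 had the smallest adjusted p, and all had higher values in LNJ-OX. CRK38 (AT4G04510), the neighbour of CRK37, had 10.7 and 8.86 CPM in LNJ-OX, 2.097 and 0.754 CPM in jazD, and 1.39 and 1.78 CPM in Col-0, and its log2 fold change of LNJ-OX over Col-0 was 2.63 ± 0.470 (adjusted p = 0.0109). CRK6 had 125 and 94.3 CPM in LNJ-OX, 54.9 and 30.6 CPM in jazD, and 37.9 and 27.8 CPM in Col-0, with a log2 fold change of 1.74 ± 0.316 in LNJ-OX against Col-0 (adjusted p = 0.0119). In both genes the jazD libraries overlapped the Col-0 libraries, and the LNJ-OX libraries lay above all of them. CRK15 had 16.98 and 12.1 CPM in LNJ-OX, 4.82 and 4.05 CPM in jazD, and 4.03 and 4.695 CPM in Col-0, with a log2 fold change of 1.74 ± 0.319 (adjusted p = 0.0121). CRK11, which overlaps CRK10 on the opposite strand, had 30.2 and 20.4 CPM in LNJ-OX, 11.1 and 9.71 CPM in jazD, and 10.3 and 9.30 CPM in Col-0, with a log2 fold change of 1.37 ± 0.273 (adjusted p = 0.0179). These genes again separated LNJ-OX from both other genotypes. CRK3, on chromosome 1 beside CRK2, had 32.1 and 24.6 CPM in LNJ-OX, 19.5 and 15.2 CPM in jazD, and 13.2 and 11.5 CPM in Col-0, with a log2 fold change of 1.20 ± 0.257 (adjusted p = 0.0241). The genotypes did not overlap for CRK3, with jazD between LNJ-OX and Col-0.

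The remaining members with an adjusted p under 0.05 in LNJ-OX against Col-0 were CRK2, CRK31 and CRK36. CRK2, a kinase known to phosphorylate the NADPH oxidase RBOHD, had 39.4 and 43.8 CPM in LNJ-OX, 28.8 and 22.1 CPM in jazD, and 18.9 and 22.8 CPM in Col-0. CRK36, known to act with the cytosolic kinase BIK1 at the flagellin receptor FLS2, had 68.4 and 53.7 CPM in LNJ-OX, 29.3 and 36.9 CPM in jazD, and 34.1 and 17.8 CPM in Col-0. For both, the LNJ-OX libraries were above the others and the jazD libraries overlapped Col-0. CRK31 stayed low, at 3.03 and 1.72 CPM in LNJ-OX, 1.57 and 0.848 CPM in jazD, and 0.315 and 0.282 CPM in Col-0.

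A few members had no higher level in LNJ-OX. CRK21 had 39.9 and 39.9 CPM in LNJ-OX, 50.7 and 35.4 CPM in jazD, and 45.3 and 46.3 CPM in Col-0, the only member tested with both LNJ-OX libraries below both Col-0 libraries. CRK42, on chromosome 5, had 21.7 and 24.2 CPM in LNJ-OX, 32.9 and 32.3 CPM in jazD, and 23.1 and 24.2 CPM in Col-0. CRK21 and CRK42 were the 2 of the 35 members with a log2 fold change below 0 in LNJ-OX against Col-0, and neither passed the test. The well-expressed CRK17 (41.5 and 45.6 CPM in LNJ-OX, 50.9 and 59.4 CPM in jazD, 52.3 and 32.6 CPM in Col-0) and CRK18 (127 and 97.3 CPM in LNJ-OX, 82.1 and 98.9 CPM in jazD, 145 and 59.2 CPM in Col-0) overlapped between LNJ-OX and Col-0.

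The 250 bases upstream of the annotated gene start were read for each of the 41 members and searched for the W-box core TTGAC on both strands (GTCAA on the printed strand). The windows of the 5 members called in LNJ-OX against Col-0 are printed because the results turn on these genes, and that of CRK11 because it held the most matches of the family. They were taken 5′ to 3′ from the RefSeq TAIR10.1 assembly: CRK13 chr4:12151639-12151888 (minus strand), CRK37 chr4:2238120-2238369 (plus), CRK14 chr4:12156882-12157131 (minus), CRK7 chr4:12125414-12125663 (plus), CRK23 chr4:12185119-12185368 (plus) and CRK11 chr4:12143859-12144108 (minus). Capitals mark the W-box core on either strand.
CRK13: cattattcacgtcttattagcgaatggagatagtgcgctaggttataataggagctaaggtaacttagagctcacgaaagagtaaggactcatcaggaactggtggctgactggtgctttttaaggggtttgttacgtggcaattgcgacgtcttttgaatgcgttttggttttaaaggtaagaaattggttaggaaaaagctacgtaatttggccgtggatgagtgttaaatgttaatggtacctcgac
CRK37: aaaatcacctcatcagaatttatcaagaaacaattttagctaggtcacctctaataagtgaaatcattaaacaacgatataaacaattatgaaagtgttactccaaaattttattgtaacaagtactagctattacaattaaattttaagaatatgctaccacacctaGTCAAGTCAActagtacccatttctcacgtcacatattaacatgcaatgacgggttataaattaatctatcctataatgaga
CRK14: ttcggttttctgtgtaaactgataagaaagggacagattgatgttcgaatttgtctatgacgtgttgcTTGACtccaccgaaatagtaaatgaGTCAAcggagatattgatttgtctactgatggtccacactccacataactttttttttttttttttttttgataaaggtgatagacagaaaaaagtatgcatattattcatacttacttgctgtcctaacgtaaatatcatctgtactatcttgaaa
CRK7: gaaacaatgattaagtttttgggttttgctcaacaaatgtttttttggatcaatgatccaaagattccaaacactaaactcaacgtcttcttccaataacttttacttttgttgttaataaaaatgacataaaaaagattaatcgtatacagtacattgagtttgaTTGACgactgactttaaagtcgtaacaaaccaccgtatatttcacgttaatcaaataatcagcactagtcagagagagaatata
CRK23: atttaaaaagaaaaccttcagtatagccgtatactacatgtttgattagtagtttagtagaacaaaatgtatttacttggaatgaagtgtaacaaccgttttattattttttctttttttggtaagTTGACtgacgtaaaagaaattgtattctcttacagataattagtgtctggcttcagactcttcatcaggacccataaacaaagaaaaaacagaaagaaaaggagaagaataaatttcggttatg
CRK11: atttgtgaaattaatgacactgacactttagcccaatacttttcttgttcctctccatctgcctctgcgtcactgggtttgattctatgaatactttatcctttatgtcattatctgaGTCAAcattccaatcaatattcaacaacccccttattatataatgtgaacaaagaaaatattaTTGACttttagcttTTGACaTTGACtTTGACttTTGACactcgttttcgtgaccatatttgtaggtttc

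The window of CRK13, the member with the largest change, held 0 matches. CRK7 had 1 match, beginning 84 bases before the gene start, and CRK23 had 1 at 124 bases. CRK14 had 2 matches in opposite orientation, at 182 and 157 bases, and CRK37 had 2 side by side, at 82 and 77 bases. CRK11 held 6, of which 5 lay between 69 and 36 bases before the start. At least 1 match was found in 30 of the 41 CRK windows (73.2%) and in 44.9% of the windows of 27443 protein-coding genes, and at least 2 in 17 CRK windows (41.5%) and in 14.1% of all windows. At least 1 match was held by 10 of the 14 members with an adjusted p under 0.05 in LNJ-OX against Col-0 (71.4%) and by 15 of the 21 other members tested (71.4%), which are not thereby shown to be unchanged. A match is a run of letters and no evidence of binding, and windows of neighbouring duplicates are not independent of each other. Some windows overlap another annotated gene, such as those of CRK15, CRK16 and CRK24, but none of the printed ones does. The annotated exons of CRK14, CRK15 and CRK33 hold coding sequence only. Their distances are therefore counted from the start codon, and these windows can hold transcribed bases.

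**Figure D3:**
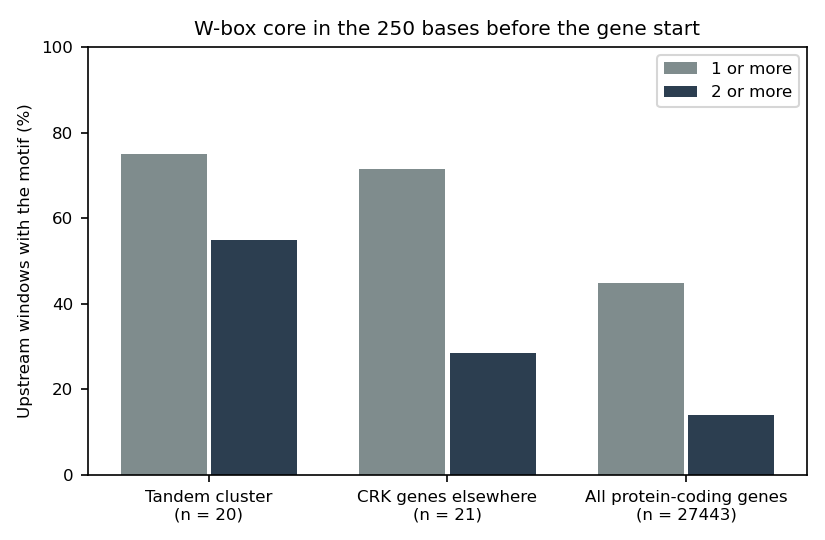
Share of upstream windows of 250 bases that hold the W-box core at least 1 time (light bars) or at least 2 times (dark bars), in percent, for the 20 genes of the tandem array, the 21 CRK genes elsewhere and 27443 protein-coding genes. At least 1 match was found in 75, 71.4 and 44.9% of the windows, and at least 2 in 55, 28.6 and 14.1%.

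The jazD line, in which repressors of JA signalling are missing, was compared with Col-0 in the same fit. This comparison uses the same Col-0 libraries as the one before, so the values of both move together with any deviation of Col-0. No member was called higher or lower in jazD, where 0.44% of all genes were called higher and 0.674% lower. At an unadjusted p under 0.05, 5 of the 35 members were higher (6.26% of all genes were) and 0 were lower (8.59% of all genes), and DESeq2 and limma-voom also called no member. Both jazD libraries were above both Col-0 libraries for 13 members (19.5% of all genes) and below them for 4 (21.1%). The median log2 fold change of the 35 members was 0.30, against 0.01 over all genes tested.

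CRK40 was the only member with an adjusted p under 0.05 in jazD against Col-0, where 1.44% of all genes were higher and 2.69% lower at that threshold, and it was singled out after its values had been seen. It had 112 and 118 CPM in jazD, 101 and 84.8 CPM in LNJ-OX, and 61.9 and 54.6 CPM in Col-0. The genotypes did not overlap, with jazD at the top and Col-0 at the bottom. Its log2 fold change was 0.98 ± 0.239 in jazD against Col-0 (adjusted p = 0.0454), and 0.67 ± 0.237 in LNJ-OX against Col-0 (adjusted p = 0.151). CRK40 and CRK42 were the 2 members with both jazD libraries above the 4 others, which held for 8.48% of all genes.

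The members that led in LNJ-OX had smaller changes in jazD than in LNJ-OX, and in both directions. The log2 fold change of jazD over Col-0 was 0.47 ± 0.316 for CRK13, 0.10 ± 0.247 for CRK37, 0.63 ± 0.385 for CRK14 and 0.10 ± 0.262 for CRK7. It was -0.63 ± 0.306 for CRK23 and -0.86 ± 0.389 for CRK12, and the adjusted p of these 6 genes was between 0.338 and 0.939 in edgeR's quasi-likelihood test. None passed the threshold, which does not show that they were equal in jazD and Col-0.

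The direct comparison of LNJ-OX with jazD tests the difference between the 2 changes. In LNJ-OX, 5 members were called higher than in jazD (14.3%, against 0.449% of all genes), namely CRK7, CRK12, CRK13, CRK23 and CRK37, and 0 were called lower (0.332% of all genes). At an unadjusted p under 0.05, 18 members were higher (7.72% of all genes) and 1 was lower (5.41%), and DESeq2 and limma-voom called none lower. At an adjusted p under 0.05, 11 members were higher (31.4%, against 1.31% of all genes) and 0 lower (0.753%). Both LNJ-OX libraries were above both jazD libraries for 24 members (25.5% of all genes) and below them for 3 (25%). Without jazD replicate 1 the number called was 3 (CRK12, CRK13 and CRK14), and without jazD replicate 2 it was 1 (CRK13), while the share of all genes called in either direction was 0.325 and 0.236% in these fits and 0.781% with all libraries.

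CRK13 again had the largest difference, with a log2 fold change of 3.56 ± 0.294 in LNJ-OX against jazD (adjusted p = 0.000114). CRK12 followed at 2.81 ± 0.383 (adjusted p = 0.0032), its jazD libraries resting on 30 and 16 counts. CRK23 stood at 2.72 ± 0.308 (adjusted p = 0.00102). For CRK12 and CRK23 the jazD level lay below Col-0, so that their difference from LNJ-OX was larger than in the comparison with the wild type. CRK37 had 2.33 ± 0.245 (adjusted p = 0.000644) and CRK7 had 1.88 ± 0.262 (adjusted p = 0.00363). CRK14 was not called, at 1.90 ± 0.374 with an adjusted p of 0.0265, and its jazD libraries of 13.3 and 5.18 CPM lay far apart. CRK4, known to associate with FLS2, reached an adjusted p of 0.0379, with 189.5 and 147.4 CPM in LNJ-OX against 57.6 and 44.6 CPM in jazD, and 118.5 and 52.5 CPM in Col-0.

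Over the members tested, the order of the genotype means was most often LNJ-OX, then jazD, then Col-0, in 21 of 35. In 8 members jazD was lowest and LNJ-OX highest, and in the remaining 6 LNJ-OX was not highest. Both LNJ-OX libraries were above the 4 others for 22 members, 13 in the array and 9 elsewhere, which held for 13.1% of all genes.

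The tandem array spans 74.2 kb of chromosome 4 (chr4:12117491-12191704 in TAIR10.1) and holds 23 annotated genes, 20 of which are CRK genes. Its members were not all higher in LNJ-OX. The median log2 fold change of LNJ-OX over Col-0 was 1.07 in the array, with 19 of 20 members above 0 and a range of -0.20 to 4.03. Members elsewhere had a median of 1.003, with 14 of 15 above 0, and all genes tested had a median of -0.01, with 49.3% above 0. The range elsewhere was -0.04 to 2.95 over 14 members, without CRK30, whose Col-0 libraries held no more than 3 counts each. With CRK30 set at its bound against that floor, the median was also 1.003. The value of 2.95 belongs to CRK31, which itself had only 5 and 3 counts in Col-0. Called members made up 4 of 20 in the array (20%) and 1 of 15 elsewhere (6.67%), while at an adjusted p under 0.05 the share was 40% in both. Over all genes tested, 0.837% were called higher, and 2.56% were higher at an adjusted p under 0.05.

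In jazD against Col-0 the median was 0.09 in the array, with 14 of 20 members above 0 and a range of -0.86 to 1.25. Elsewhere it was 0.47, also with CRK30 at its bound, with 12 of 15 members above 0 and a range of -0.75 to 1.97 over the 14 members other than CRK30. Over all genes tested, 50.8% were above 0. The upper ends of 1.25 and 1.97 belong to CRK20 (7 and 2 counts in Col-0) and CRK31 (5 and 3 counts). Without Col-0 replicate 1 the medians were 0.50 in the array and 0.62 elsewhere, so that this library moves both. The array median moved by more than the gap between the array and the rest in the fit of all libraries. In LNJ-OX against jazD the medians were 0.99 in the array and 0.71 elsewhere, against 0.00 over all genes tested.

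Log2 fold changes varied along the array. The stretches that follow were drawn after the values were seen and carry no test. At an adjusted p under 0.05, 2.56% of all genes were higher in LNJ-OX than in Col-0, and 2.29% were lower. The 10 genes CRK6 to CRK15, over 38.9 kb, had log2 fold changes of 0.47 to 4.03 in LNJ-OX against Col-0, and 7 had an adjusted p under 0.05. The 7 genes CRK16 to CRK22, over 24.3 kb, had log2 fold changes of -0.20 to 2.28, and 0 had an adjusted p under 0.05. They are not thereby shown to be unchanged: the Col-0 libraries of CRK18, CRK19 and CRK20 differed by 2.45, 2.26 and 2.35-fold. CRK16 and CRK17 overlap on the same strand, so the counts of each are uncertain. The value of 2.28 belongs to CRK20, with 7 and 2 counts in Col-0. CRK23 follows directly after this stretch. Among the members elsewhere on chromosome 4, CRK36 to CRK40 lie within 61.2 kb, and 3 of these 5 genes had an adjusted p under 0.05. The 10 tested genes on either side of the array had log2 fold changes of LNJ-OX over Col-0 between -1.11 and 1.02, with a median of 0.28. Of these 20 genes 0 were called, where 1.42% of all genes were called in either direction. At that share, 0 calls among 20 genes do not set them apart from other genes.

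**Figure D4:**
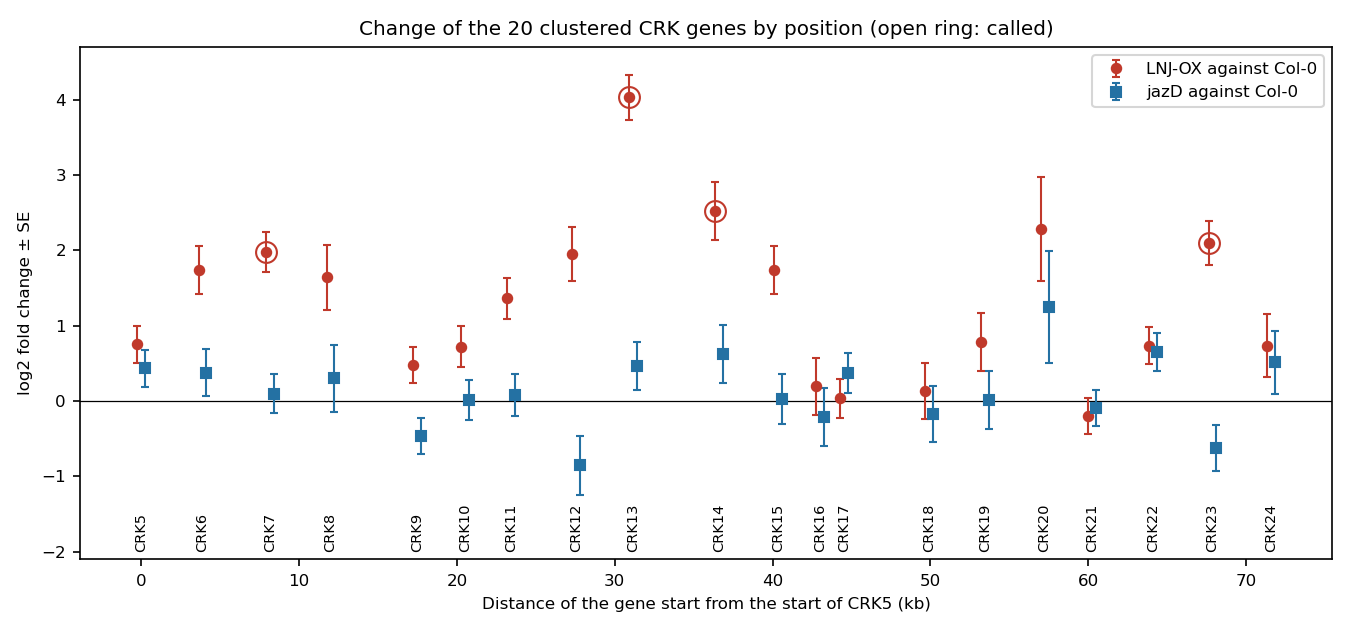
Log2 fold change of the 20 genes of the tandem array against Col-0, by distance of the gene start from that of CRK5 in kb. Circles are LNJ-OX and squares jazD, bars give the SE of the fit, points of 1 gene are drawn slightly apart, and open rings mark called genes. The 4 ringed genes are CRK7, CRK13, CRK14 and CRK23, and CRK16 to CRK18 lie between -0.22 and 0.37 in both genotypes. The counts of CRK16 and CRK17, which overlap, are uncertain.

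Another 5 genes of the array, CRK5, CRK8, CRK10, CRK20 and CRK22, had no adjusted p under 0.05 in any comparison. CRK5, known from cell death and abscisic acid responses, had 21.1 and 20.8 CPM in LNJ-OX, 18.1 and 15.5 CPM in jazD, and 13.8 and 10.99 CPM in Col-0, with no overlap between genotypes. CRK10 had 66.5 and 65.9 CPM in LNJ-OX, 48.6 and 32.7 CPM in jazD, and 47.3 and 32.96 CPM in Col-0. For CRK10 the jazD libraries overlapped Col-0, and both LNJ-OX libraries were above them. CRK8 had 9.28 and 4.73 CPM in LNJ-OX, 2.62 and 2.92 CPM in jazD, and 2.33 and 2.16 CPM in Col-0. CRK20, known from the interaction with Pseudomonas syringae, had 1.65 and 1.64 CPM in LNJ-OX, 0.839 and 0.754 CPM in jazD, and 0.441 and 0.188 CPM in Col-0. CRK8 and CRK20 also separated LNJ-OX from both other genotypes. CRK22 had 45.2 and 33.9 CPM in LNJ-OX, 38.7 and 36.2 CPM in jazD, and 27.1 and 20.5 CPM in Col-0, with both mutant and overexpressor above the wild type and overlapping each other.

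Outside the array, CRK28, which is known to join the co-receptor BAK1, and its neighbour CRK29 stayed within the spread. CRK28 and CRK29 overlap on the same strand, so the counts of each are uncertain. CRK28 had 14.9 and 10.8 CPM in LNJ-OX, 11.01 and 12.2 CPM in jazD, and 11.8 and 4.79 CPM in Col-0. CRK39 had 3.42 and 5.34 CPM in LNJ-OX, 1.05 and 0.566 CPM in jazD, and 1.26 and 1.32 CPM in Col-0, and reached an adjusted p of 0.0494 in LNJ-OX against jazD. CRK41 had 25.02 and 18.1 CPM in LNJ-OX, 24.2 and 14.99 CPM in jazD, and 12.2 and 12.1 CPM in Col-0. CRK41 was thus higher in every library of both lines than in Col-0, but had no adjusted p under 0.05 in any comparison. Both libraries lay above both Col-0 libraries for 24% of all genes in LNJ-OX and for 19.5% in jazD. CRK30 had 0.922 and 1.21 CPM in LNJ-OX, 0.839 and 2.64 CPM in jazD, and 0 and 0.282 CPM in Col-0, where Col-0 is at or under the level of 3 counts, so that no fold is given for it.

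A total of 6 members, CRK1, CRK25, CRK26, CRK27, CRK32 and CRK33, had too few counts to be tested. CRK27 was the highest of them, at up to 0.724 CPM and 38 counts in the 6 libraries together. CRK33 had 0 counts in all 6 libraries, which allows a level of up to 0.189 to 0.315 CPM per library by counting error alone. CRK1 had 8 counts in all, none of them in LNJ-OX.

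The spread between replicates differed between the genotypes. The Col-0 libraries differed by 2-fold or more for 7 of the 35 members (CRK4, CRK18, CRK19, CRK20, CRK24, CRK28 and CRK30), the jazD libraries for 4 (CRK12, CRK14, CRK30 and CRK38) and the LNJ-OX libraries for 0. Replicate 1 was the higher library for 29 members in LNJ-OX and for 27 in Col-0.

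Similarity between members limits single counts in places. The closest other member had a coding identity between 35.6 and 86.9%, with a median of 69.5%. Of all 50-base words in a member's exons, a median of 0.75% also occurred in another gene, and in 9 members it was over 10%. These included CRK13, with 15.4% shared with CRK22, and CRK6, with 22.0%, mostly with CRK8. CRK22 had 45.2 and 33.9 CPM in LNJ-OX, against 27.1 and 20.5 CPM in Col-0. The other called members shared little: 0.95% for CRK7, 0.20% for CRK37, 1.88% for CRK23, and 0 for CRK12 and CRK14. CRK16 and CRK17 overlap on the same strand and shared 38.4 and 29.04% of these words. CRK28 and CRK29 also overlap on the same strand and shared 16.1 and 16.2%. CRK10 and CRK11 overlap on opposite strands, and the strand setting of the counting is not given in the sources used here. Counts of these pairs are therefore uncertain.

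Genes known to work with CRKs, or related to them, were followed as a list of 23, of which 22 were tested. In LNJ-OX against Col-0, 3 were called higher (0.837% of all genes were), and the median log2 fold change was 0.69. At an adjusted p under 0.05, 9 were higher (2.56% of all genes) and 0 were lower (2.29%). Besides genes described below, these were PR1, WRKY18, WRKY33 and WRKY53. The libraries of PR1 lay far apart, at 1105 and 367 CPM in LNJ-OX and 69.7 and 172 CPM in Col-0. ICS1, the enzyme of pathogen-induced SA synthesis, had 137 and 132 CPM in LNJ-OX, 30.6 and 25.1 CPM in jazD, and 19.2 and 24.3 CPM in Col-0, with a log2 fold change of 2.63 ± 0.251 in LNJ-OX against Col-0 (adjusted p = 0.00109). CRK45 (ARCK1), a cytosolic relative of the CRKs, had 69.4 and 41.2 CPM in LNJ-OX, 23.6 and 14.4 CPM in jazD, and 10.5 and 17 CPM in Col-0, with a log2 fold change of 2.02 ± 0.352 (adjusted p = 0.00976). WRKY40, a transcription factor that binds W-boxes, had 28.8 and 19.2 CPM in LNJ-OX, 14.3 and 10.9 CPM in jazD, and 8.00 and 5.26 CPM in Col-0, with a log2 fold change of 1.84 ± 0.316 (adjusted p = 0.00905). For CRK45 the jazD libraries overlapped Col-0, and for ICS1 and WRKY40 they lay between the other genotypes.

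None of the partners at the cell surface was called in LNJ-OX against Col-0. FLS2 had 21.8 and 22.5 CPM in LNJ-OX, 14.3 and 9.14 CPM in jazD, and 17.8 and 10.8 CPM in Col-0. RBOHD had 99.6 and 122 CPM in LNJ-OX, 193 and 139 CPM in jazD, and 118 and 76.4 CPM in Col-0. Neither had an adjusted p under 0.05, nor did BAK1, with a log2 fold change of 0.57 ± 0.2275 in LNJ-OX against Col-0. BIK1 and RBOHF, another NADPH oxidase gene, were higher in LNJ-OX than in Col-0. Their log2 fold changes were 1.16 ± 0.2855 and 1.35 ± 0.276, at adjusted p of 0.0426 and 0.0201 in edgeR's test. The plasmodesmata-located proteins (PDLPs), which have the cysteine-rich domain without the kinase, had log2 fold changes between -0.50 and 0.21 in LNJ-OX against Col-0 in the 7 genes tested, and none was called. In jazD against Col-0, 0 of the 22 were called and 0 had an adjusted p under 0.05, with a median log2 fold change of 0.26. At an unadjusted p under 0.05, 5 of the 22 were higher (6.26% of all genes) and 2 lower (8.59% of all genes). In LNJ-OX against jazD, ICS1 alone was called (2.27 ± 0.248, adjusted p = 0.000814), and CRK45 also had an adjusted p under 0.05.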

How the data were processed

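RNA was sequenced from shoots of LNJ-OX, jazD and Col-0 plants, with 2 libraries each. Per the labels, the authors trimmed reads with Trim Galore 0.6.3, aligned them to TAIR10 with HISAT2 2.1.0 and deposited raw counts per gene from HTSeq 0.9.1. Strand and multiple-mapping settings are not given in the sources used here. The authors' tables from limma 3.38.3 hold fold changes and p-values of their own comparisons and were not used.

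From these counts, edgeR 4.0.16 in R 4.3.3 fitted all 6 libraries together, with genotype as the only term, after its default filter on low counts and TMM scaling (biological coefficient of variation 0.232). Its quasi-likelihood test gave p-values, which the Benjamini-Hochberg method adjusted over 21374 genes. A call needed an adjusted p under 0.01 and an absolute log2 fold change above 1. CPM are counts scaled with TMM factors. The thresholds are those of the study. Alternatives were other scaling factors, other filters, DESeq2 1.42.0, limma-voom (limma 3.58.1), the 4 libraries compared, a replicate block and leaving out each library. The procedure was tested on simulated data.

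Members and gene lists were chosen with earlier results of these data known. Fold changes with errors are given for called members, for the 5 others with the smallest adjusted p, and for genes of the partner list. CRK40 falls outside that rule. Gene positions and upstream windows come from RefSeq TAIR10.1. Intervals and floors cover counting error only.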

Additional observations from a re-analysis of the deposited data

Results flagged for a closer look

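For 5 members the change in LNJ-OX and that in jazD, both against Col-0, differed by the test of the difference itself, which is LNJ-OX against jazD in the quasi-likelihood fit of edgeR. The log2 difference was 3.565 for CRK13, 2.81 for CRK12, 2.72 for CRK23, 2.33 for CRK37 and 1.88 for CRK7, and the LNJ-OX libraries were above the jazD libraries in every case. CRK12 and CRK23 had negative log2 fold changes in jazD against Col-0 that did not pass the threshold. The calls of CRK7, CRK23 and CRK37 did not hold without jazD replicate 1, where the log2 differences were 1.92, 2.70 and 2.38. Those of CRK7, CRK12, CRK23 and CRK37 did not hold without jazD replicate 2, where they were 1.84, 2.36, 2.74 and 2.29. The call of CRK7 was also lost without LNJ-OX replicate 1 (1.54, adjusted p = 0.0159 in edgeR's test). No group has 4 libraries or more, so none was examined for single libraries standing apart.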

How the results depend on the processing

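CRK13 was called in LNJ-OX against Col-0 and against jazD under all 15 alternatives, and the 5 members called in either comparison were called again under every planned setting that kept all libraries of the comparison. In LNJ-OX against Col-0 the number called higher (5) became 14 without a filter on low counts, 12 with DESeq2, 11 with the replicate number as a block, and 14 at an adjusted p under 0.05 alone, and it lay between 1 and 9 when 1 library was left out. In LNJ-OX against jazD the number (5) became 12 without the filter, 11 with DESeq2, 10 with the replicate block and 11 at an adjusted p under 0.05 alone, and lay between 1 and 6 when 1 library was left out. In jazD against Col-0 the 0 became 1 without the filter (CRK30) and 1 at an adjusted p under 0.05 alone (CRK40). No alternative called a member lower. The share of all genes called in either direction also moved: in LNJ-OX against Col-0 it was 1.42% with the settings reported, 5.09% without the filter, 3.85% with DESeq2 and 3.13% with the block, and in LNJ-OX against jazD 0.781, 3.42, 2.31 and 1.66% in the same order. Other scaling factors, limma-voom, a filter at 1 CPM and fits of 4 libraries kept the counts between 5 and 7 in the comparisons with calls. The cause of these shifts was not tested.

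Same-numbered replicates did not deviate together across all genes tested (r of -0.0143, 0.0909 and 0.0531 for the pairs of genotypes), so the numbers were not taken as pairs. Among the CRK members, replicate 1 was more often the higher library in LNJ-OX (29 members) and in Col-0 (27). Whether the numbers are pairs for these genes was not tested.

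With 1 library left out, the median log2 fold change of the array lay between 0.91 and 1.58 in LNJ-OX against Col-0, between -0.074 and 0.50 in jazD against Col-0 and between 0.78 and 1.13 in LNJ-OX against jazD. That of members elsewhere lay between 0.96 and 1.44, 0.18 and 0.62, and 0.51 and 0.89 in the same comparisons. Log2 fold changes of jazD over Col-0 changed sign with a library left out for 5 of the 11 members refitted in this way, none of them called in that comparison. They lay between -0.20 and 1.16 for CRK14, -0.10 and 0.74 for CRK6, -0.10 and 0.155 for CRK15, -0.016 and 0.18 for CRK11, and -1.05 and 0.42 for CRK38. The sign changed without jazD replicate 1 for CRK14, CRK6, CRK15 and CRK11, without Col-0 replicate 1 for CRK15 (-0.06), and without Col-0 replicate 2 (0.02) and jazD replicate 2 for CRK38. Depth limits the weaker members: in the jazD libraries CRK12 rested on 30 and 16 counts and CRK38 on 20 and 8.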
